A study of Rattus norvegicus with 10 samples.

Results

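CDK inhibitors, D-type cyclins, the kinase gene Wee1 and the transcription factor gene Myc, which brake or start the cell cycle, were examined in rat lung. The genes were chosen by name, and 9 of the 10 names were found among the 22250 genes of the deposited table: the inhibitors Cdkn1a, Cdkn1b, Cdkn1c and Cdkn2c, the D cyclins Ccnd1, Ccnd2 and Ccnd3, and Wee1 and Myc. The tenth, the inhibitor Cdkn2d, is not analysed here. Messenger RNA had been sequenced from lung tissue in 10 libraries, XBS 1 to 5 and MOD 1 to 5, with 11998979 to 15518929 counts each. Per the design text, the rats had neutrophilic asthma brought on by ovalbumin, an allergen from egg white, together with lipopolysaccharide from bacterial membranes, and the Shuangpi formula (SP) was given in the study. The labels expand neither XBS nor MOD, tie neither to SP, and give no strain, sex, age, dose or hour of sampling. They also name 16HBE, a human bronchial epithelial cell line, although the identifiers are rat Ensembl genes and the surfactant genes and other alveolar type 2 markers had summed levels of 16865 to 34076 CPM (counts per 1000000 counts of the scaled library) in XBS and 25038 to 32295 CPM in MOD. Whether each library is a different animal is not stated, so the p-values reflect spread among libraries that may be partly technical. Of the marker genes checked, the endothelial gene Cldn5 was at 0 in all libraries.

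Progress from G1 into DNA replication depends on D cyclins, which activate the kinases CDK4 and CDK6 to phosphorylate the retinoblastoma protein and release E2F transcription factors. Inhibitors of the INK4 family, such as the products of Cdkn2c and Cdkn2d, bind CDK4 and CDK6 directly. The Cip/Kip inhibitors, encoded by Cdkn1a (p21), Cdkn1b (p27) and Cdkn1c (p57), bind cyclin-CDK complexes more broadly. Wee1 delays mitosis by phosphorylating CDK1, and Myc promotes growth and entry into the cycle. Several of these genes are known to answer to the circadian clock or to glucocorticoids: in mouse liver, Wee1 is activated through E-boxes by CLOCK and its partner, and Cdkn1a is repressed by REV-ERB alpha, the product of Nr1d1.

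RefSeq promoter windows, from 250 bases before to 50 after the annotated start in build GRCr8, were available for 4 of the 9 genes, Cdkn1a, Cdkn1b, Cdkn2c and Ccnd3. Those of Cdkn1a and Cdkn1b are shown, since these Cip/Kip genes had a large and a small difference between the groups. Cdkn1a is given for chr20:7150682-7150981 on the plus strand, with a match to the p53 response element in capitals. Cdkn1b is given for chr4:169491254-169491553 on the plus strand, with a GC box (GGGCGG) in capitals.
Cdkn1a: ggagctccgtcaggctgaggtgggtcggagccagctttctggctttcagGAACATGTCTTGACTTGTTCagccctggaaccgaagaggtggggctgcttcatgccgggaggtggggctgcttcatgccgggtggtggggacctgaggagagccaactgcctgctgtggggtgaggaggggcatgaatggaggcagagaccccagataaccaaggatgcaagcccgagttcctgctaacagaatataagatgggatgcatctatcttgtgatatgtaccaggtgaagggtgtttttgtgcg
Cdkn1b: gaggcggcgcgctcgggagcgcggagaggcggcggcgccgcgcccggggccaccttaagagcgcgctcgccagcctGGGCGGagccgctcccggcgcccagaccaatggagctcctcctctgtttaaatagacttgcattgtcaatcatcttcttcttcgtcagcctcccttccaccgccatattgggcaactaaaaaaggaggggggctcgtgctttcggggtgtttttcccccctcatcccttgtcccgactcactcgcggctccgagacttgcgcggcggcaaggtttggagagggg
The p53 response element was searched as 20 bases without a spacer and with at most 1 mismatch, and the Cdkn1a window matched from -201 to -182 with 1 mismatch. Such a match stood in 24 of all 33469 promoter windows (0.0717%). GC boxes, searched on both strands, were found in 33.1% of all windows and in those of Cdkn1b, Cdkn2c and Ccnd3, but not in that of Cdkn1a. None of the 4 windows held the clock E-box CACGTG (6.42% of all windows), the D-box TTATGTAA (0.893%), the glucocorticoid receptor half-site TGTTCT (20.7%) or the nuclear receptor half-site AGGTCA (16.2%), each searched on both strands and independently of the others. These matches are descriptions of the letters in short windows. Each gene had 1 window at 1 annotated start, so any other start, also of Cdkn1a, was not searched. The Cdkn1a window had 56.7% G or C, and those of Cdkn1b, Cdkn2c and Ccnd3 had 64.7%, 65.3% and 69.0%, against a median of 51.7% over all windows.

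Cdkn1a, which encodes p21, an inhibitor induced by p53 and other stress signals, was 1.94-fold lower in XBS than in MOD. It stood at 34.9, 31.3, 33.7, 51.0 and 55.1 CPM in XBS 1 to 5, against 75.8, 63.2, 69.4, 96.9 and 93.6 CPM in MOD 1 to 5. Every XBS library lay below every MOD library, and within XBS the values of XBS 4 and XBS 5 were nearest to MOD. The means were 41.2 ± 11.0 CPM in XBS and 79.8 ± 14.9 CPM in MOD (SD, n = 5 each), a log2 fold change of -0.95 ± 0.18 (SE; 95% interval -1.35 to -0.55). It ranked 45 of 14320 tested genes by p, but did not pass a threshold of 0.05 (edgeR quasi-likelihood test, Benjamini-Hochberg adjusted p = 0.0858). DESeq2 gave the same fold change and an adjusted p of 0.00028, and limma voom with sample weights gave 0.0656. Without XBS 2 and XBS 3, the pair that stood apart in airway markers (below), the log2 fold change was -0.76 (edgeR adjusted p = 0.251). In bulk tissue, fewer cells of a type and less RNA per cell cannot be told apart. The table places Cdkn1a (ENSRNOG00000000521) on chromosome 20 from 6351458 to 6358864, in a build, also used for the genes that follow, not given in the sources used here.

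**Figure D1:**
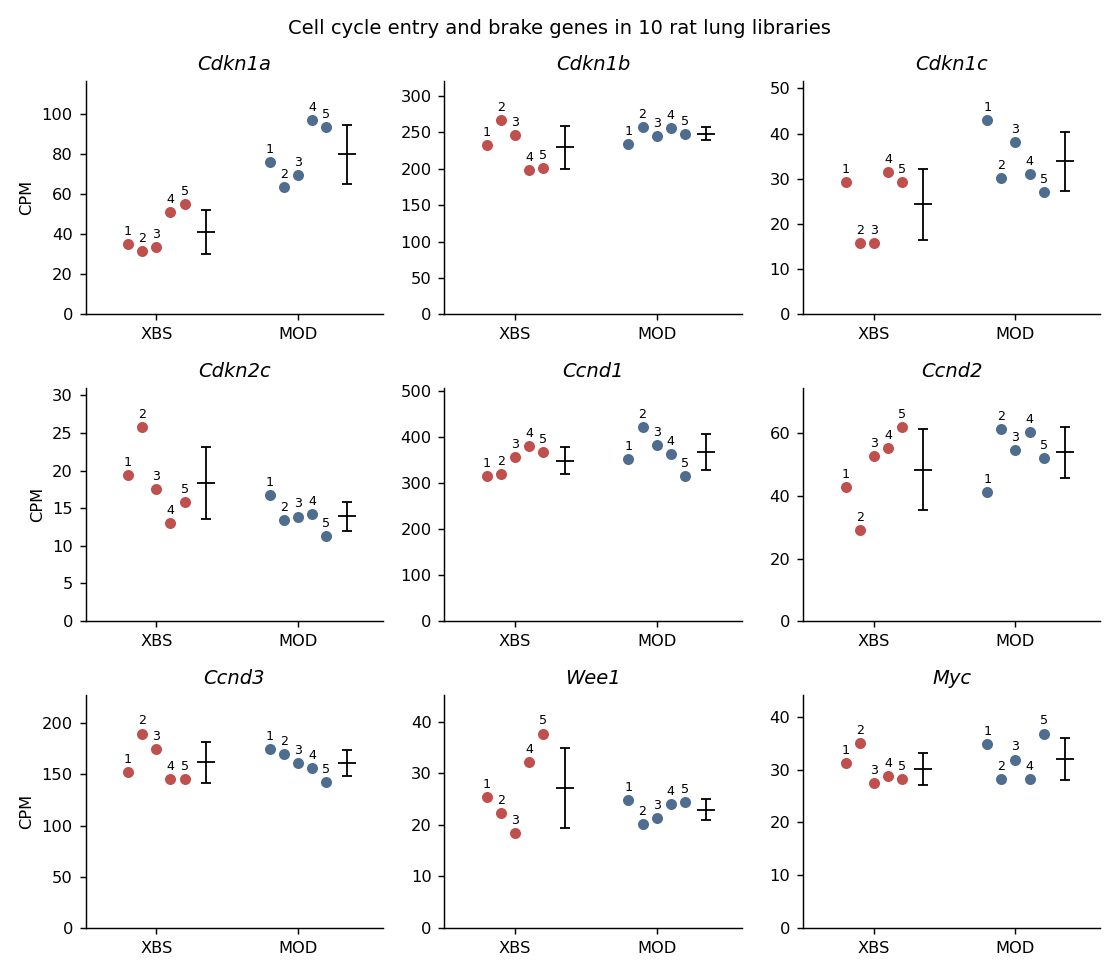
CPM (vertical axes, from 0) of the 9 genes in each of the 5 XBS and 5 MOD libraries. Points carry the replicate number, and the bars beside them are mean and SD. Cdkn1a has groups that do not overlap, with 31.3 to 55.1 CPM in XBS, against 63.2 to 96.9 CPM in MOD, while the other 8 genes overlap.

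Among the 9 genes, 0 passed the adjusted threshold by edgeR, where 0.0768% of all 14320 tested genes passed. At an unadjusted p under 0.05 there were 2, Cdkn1a and Cdkn2c, against 13.2% of all genes in either direction and 5.78% lower in XBS. DESeq2 called 1, Cdkn1a, against 2.58% of the genes to which it gave an adjusted p (1.08% lower and 1.5% higher in XBS), and limma voom called 0, against 0.461%. Cdkn1a was also the 1 gene of the 9 whose groups did not overlap, against 2.74% of all tested genes (1.13% lower and 1.61% higher in XBS). Of the 9, 6 had a negative fold change, against 48.1% of all genes. Their median log2 fold change was -0.09, beside 0.01 over all genes, and the median size of the change was 0.16, beside 0.14. All 9 had at least 159 reads in every library, so each was tested.

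**Figure D2:**
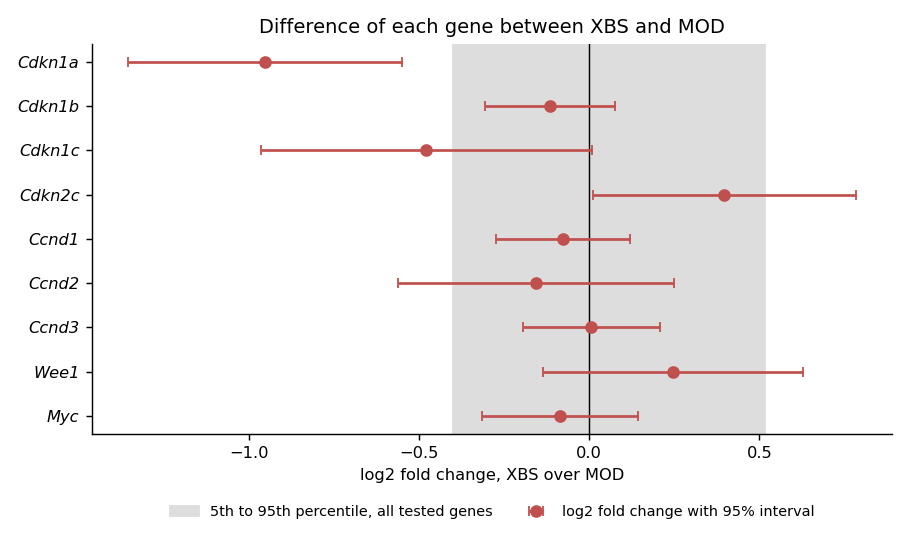
Log2 fold change, XBS over MOD (horizontal axis), of each of the 9 genes with its 95% interval from edgeR. The grey band spans the 5th to 95th percentile of all 14320 tested genes, -0.40 to 0.52. Cdkn1a (-0.95) and Cdkn1c (-0.48) lie below the band, and the intervals of Cdkn1a and Cdkn2c leave out 0.

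Cdkn1b (ENSRNOG00000007249, chromosome 4 from 168689163 to 168693964), which encodes p27, a brake that is abundant in resting cells, differed little between the groups. It had 233, 267, 247, 199 and 201 CPM in XBS 1 to 5, against 235, 258, 245, 256 and 248 CPM in MOD 1 to 5. XBS 1, XBS 4 and XBS 5 lay below every MOD library and XBS 2 above every one, and the spread was wider in XBS (SD 29.4 CPM) than in MOD (SD 9.31 CPM). The log2 fold change was -0.12 ± 0.09 (SE; 95% interval -0.31 to 0.08, edgeR adjusted p = 0.571), so a decrease as large as that of Cdkn1a lay outside the interval.

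Cdkn1c (ENSRNOG00000059500, chromosome 1 from 216661080 to 216663721), which encodes p57, an imprinted inhibitor prominent in development, was low in a pair of XBS libraries. It stood at 15.8 CPM in both XBS 2 and XBS 3, and at 29.2, 31.4 and 29.3 CPM in XBS 1, XBS 4 and XBS 5, against 43.0, 30.1, 38.1, 31.1 and 27.1 CPM in MOD 1 to 5. The other three XBS libraries lay within the MOD range. Over all libraries its log2 fold change was -0.48 ± 0.22 (SE, edgeR adjusted p = 0.385), and without XBS 2 and XBS 3 it was -0.18 (adjusted p = 0.645). The same pair of libraries was low in airway markers. The 9 club cell markers found summed to 2671 CPM in XBS 2 and 2882 CPM in XBS 3 and to at least 8247 CPM in each of the other XBS libraries, while MOD had 8436 to 12600 CPM. The 13 ciliated cell markers found summed to 386 and 387 CPM in XBS 2 and XBS 3 and to 670 to 1143 CPM in the other XBS libraries, against 754 to 928 CPM in MOD. No club or ciliated marker was at 0 in all libraries, and the part of airway content in the Cdkn1c values was not tested.

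Per unit of gene length, Cdkn1b was the most abundant Cip/Kip transcript in every library. It had 132 ± 15.6 FPKM (deposited values per kilobase of gene length and library total) in XBS and 140 ± 4.22 FPKM in MOD (SD, n = 5 each). Cdkn1a had 21.4 ± 6.02 FPKM in XBS and 40.5 ± 7.30 FPKM in MOD, and Cdkn1c had 12.0 ± 4.05 FPKM in XBS and 16.5 ± 3.37 FPKM in MOD. The sum of the 3 was 158 to 178 FPKM in XBS, below the 191 to 208 FPKM of every MOD library. Cdkn1a made up 9.13% to 18.0% of that sum in XBS and 16.7% to 23.7% in MOD, so its share overlapped between the groups although its level did not. Cdkn1b and Cdkn1c, each taken singly, overlapped between the groups. The sum and the shares follow in part from the Cdkn1a values already given and are a description without a test.

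**Figure D3:**
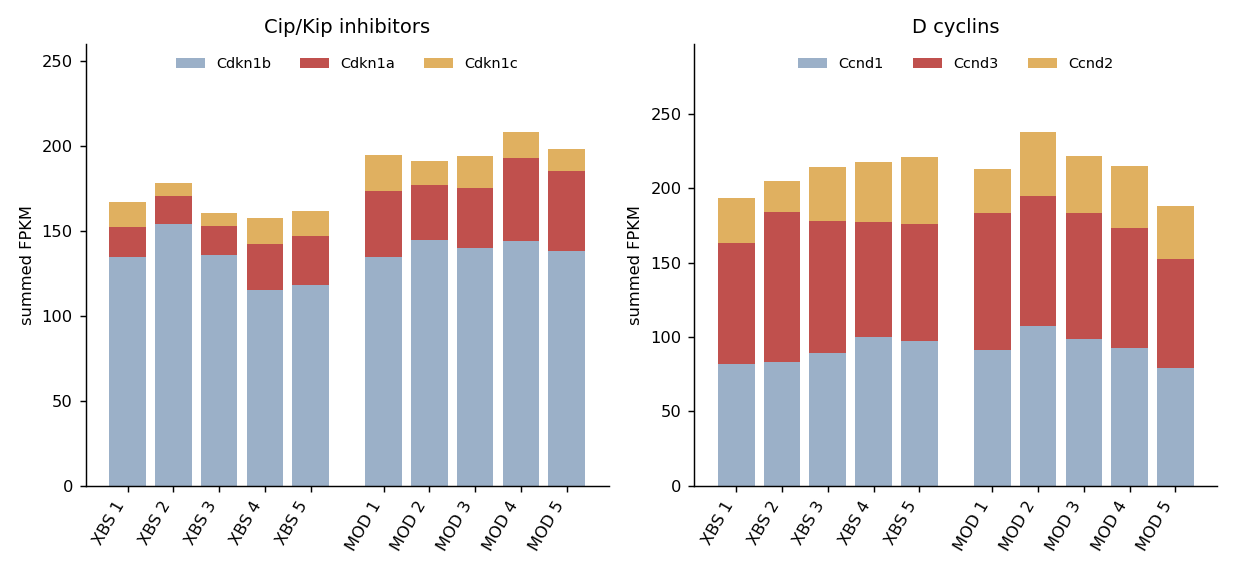
Deposited FPKM (vertical axes, from 0) stacked over the Cip/Kip inhibitor genes (left) and the D cyclin genes (right) in each library. The Cip/Kip sums are 158 to 178 FPKM in XBS, against 191 to 208 FPKM in MOD, while Cdkn1b and Cdkn1c, each taken singly, overlap. The D cyclin sums overlap, with 194 to 221 FPKM in XBS, against 188 to 238 FPKM in MOD.

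Cdkn2c (ENSRNOG00000008956, chromosome 5 from 129347732 to 129352886), which encodes the INK4 inhibitor p18, leaned the other way. It had 19.4, 25.8, 17.6, 13.0 and 15.8 CPM in XBS 1 to 5, against 16.8, 13.4, 13.9, 14.2 and 11.3 CPM in MOD 1 to 5. XBS 1, XBS 2 and XBS 3 lay above every MOD library, while XBS 4 and XBS 5 lay within the MOD range. The log2 fold change was 0.40 ± 0.18 (SE; 95% interval 0.01 to 0.78), 1.32-fold higher in XBS, with an unadjusted p of 0.0453 and an adjusted p = 0.371 by edgeR. Without XBS 2 alone the log2 fold change was 0.24 (adjusted p = 0.591), and without XBS 2 and XBS 3 it was 0.21 (adjusted p = 0.630). The INK4 gene Cdkn2b, named after its values were seen, averaged 93.1 ± 26.2 CPM in XBS and 117 ± 15.6 CPM in MOD (SD, n = 5 each). Its log2 fold change was -0.33 (edgeR adjusted p = 0.422), and without XBS 2 and XBS 3 it was -0.63 (edgeR adjusted p = 0.142).

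None of the D cyclins differed beyond the spread between libraries. Ccnd1 (ENSRNOG00000020918, chromosome 1 from 218090750 to 218100325), the D cyclin induced by many growth signals, had 314, 320, 357, 381 and 367 CPM in XBS 1 to 5, against 352, 422, 383, 363 and 315 CPM in MOD 1 to 5. Ccnd2 (ENSRNOG00000057710, chromosome 4 from 159674885 to 159697207), the D cyclin best known from lymphoid and endocrine cells, had 42.8, 29.2, 52.7, 55.4 and 62.1 CPM in XBS, against 41.3, 61.3, 54.7, 60.6 and 52.0 CPM in MOD. XBS 2 was the lowest Ccnd2 library of all 10, and XBS 5 the highest. Ccnd3 (ENSRNOG00000050258, chromosome 9 from 15404822 to 15410943), the most widely expressed D cyclin, had 152, 190, 175, 145 and 146 CPM in XBS, against 175, 170, 162, 156 and 143 CPM in MOD. The log2 fold changes were -0.08 ± 0.09 for Ccnd1, -0.16 ± 0.18 for Ccnd2 and 0.01 ± 0.09 for Ccnd3 (SE, edgeR adjusted p = 0.724, 0.733 and 0.982). The 95% intervals ran from -0.27 to 0.12, from -0.56 to 0.25 and from -0.20 to 0.21, so changes of the size seen for Cdkn1a lay outside all of them.

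In FPKM, Ccnd1 (90.5 ± 8.02 in XBS and 93.8 ± 10.2 in MOD) and Ccnd3 (85.2 ± 9.67 in XBS and 83.6 ± 7.25 in MOD) were at like levels, and their ranges overlapped in both groups. Ccnd2 had 34.5 ± 9.30 FPKM in XBS and 37.8 ± 5.45 FPKM in MOD (SD, n = 5 each), below both in every library. Ccnd3 took 49.1% of the D cyclin sum in XBS 2 and 35.5% to 41.7% in the other XBS libraries, against 36.9% to 43.2% in MOD. By level, the 9 genes ran from Cdkn1b through Ccnd1 and Ccnd3 down to Wee1 at 8.41 ± 2.54 FPKM in XBS and 6.94 ± 0.64 FPKM in MOD. Cdkn1a and Ccnd2 were neighbours in this order with overlapping ranges in both groups, Ccnd2 first in XBS and Cdkn1a first in MOD. Below them came Cdkn2c, Cdkn1c and Myc in XBS, and Cdkn1c, Myc and Cdkn2c in MOD, each overlapping its neighbour among the 3.

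Wee1 (ENSRNOG00000010017, chromosome 1 from 174767960 to 174786361) was highest in XBS 4 and XBS 5. It had 25.5, 22.2, 18.5, 32.2 and 37.7 CPM in XBS 1 to 5, against 24.7, 20.1, 21.4, 24.1 and 24.4 CPM in MOD 1 to 5. XBS 3 was the lowest library of all 10, whereas XBS 1, XBS 4 and XBS 5 exceeded every MOD library, XBS 1 by little. The mean was 27.2 ± 7.75 CPM in XBS and 23.0 ± 2.08 CPM in MOD (SD, n = 5 each), a log2 fold change of 0.25 ± 0.17 (SE; 95% interval -0.14 to 0.63, edgeR adjusted p = 0.546). Without XBS 5 alone it was 0.10 (adjusted p = 0.753), and without XBS 2 and XBS 3 it was 0.47 (adjusted p = 0.310).

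Myc (ENSRNOG00000004500, chromosome 7 from 102586313 to 102591240) did not differ between the groups beyond the spread between libraries. It had 31.1, 35.1, 27.5, 28.7 and 28.2 CPM in XBS 1 to 5, against 34.9, 28.2, 31.9, 28.1 and 36.8 CPM in MOD 1 to 5. The ranges largely coincided, and the log2 fold change was -0.09 ± 0.10 (SE; 95% interval -0.32 to 0.14, edgeR adjusted p = 0.737). Of 13 tested genes of the Myc network, 0 passed in either direction and 10 had a positive fold change, with a median log2 fold change of 0.06. DESeq2 called 1 of them higher, where it called 1.5% of the genes to which it gave an adjusted p. The Myc paralogue Mycn was low, at 4.46 ± 1.26 CPM in XBS and 2.12 ± 0.51 CPM in MOD (SD, n = 5 each), a log2 fold change of 1.07 ± 0.25 (SE, edgeR adjusted p = 0.135). Mxd3, a repressor that competes for the Myc partner Max, averaged 61.0 ± 13.4 CPM in XBS and 50.3 ± 9.68 CPM in MOD (edgeR adjusted p = 0.467).

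The remaining genes of the pathways around these 9 were taken from lists that were chosen with earlier results of these data known. Of 17 tested p53 target genes other than Cdkn1a, 0 passed in either direction by edgeR or DESeq2 and 0 reached an unadjusted p under 0.05, where 13.2% of all genes did. Over all genes, edgeR called 0.0768%, and DESeq2 called 2.58% of those to which it gave an adjusted p. The XBS and MOD values overlapped for all 17, while the groups did not overlap in 2.74% of all tested genes. Counts of 0 among 17 are near these last 3 shares. Their median log2 fold change was 0.004, with 9 positive and 8 negative. The members of smallest p were Gadd45a, a stress gene of DNA repair, at 52.3 ± 5.94 CPM in XBS and 62.5 ± 10.4 CPM in MOD, and the kinase gene Plk3, at 18.7 ± 4.52 CPM in XBS and 14.2 ± 3.32 CPM in MOD (SD, n = 5 each; edgeR adjusted p = 0.404 and 0.429). Mdm2, which encodes the ligase that degrades p53 and was named after its values were seen, had a log2 fold change of 0.12 (adjusted p = 0.666).

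Glucocorticoid-induced genes, a list without Cdkn1a, were mostly lower in XBS. Of 18 tested members, 0 rose and 3 fell (Per1, Klf15 and Nfkbia), against 0.0279% and 0.0489% of all genes, and 15 did not pass. By sign, 15 were negative and 3 positive, with a median log2 fold change of -0.70, beside 0.01 over all genes. DESeq2 called 9 lower and 0 higher, against 1.08% lower and 1.5% higher of the genes to which it gave an adjusted p. Per1, a period gene of the clock, fell to 75.0 ± 8.48 CPM in XBS, against 161 ± 21.4 CPM in MOD (SD, n = 5 each; edgeR adjusted p = 0.00455). Klf15, a transcription factor of metabolism, fell to 34.0 ± 3.25 CPM in XBS, against 60.9 ± 4.56 CPM in MOD (adjusted p = 0.00455). Nfkbia, whose product restrains NF-kB, fell to 177 ± 23.1 CPM in XBS, against 317 ± 54.0 CPM in MOD (adjusted p = 0.0445). Of 18 tested clock genes, 0 rose and 2 fell, Per1 and the repressor Cry1, which fell to 16.8 ± 2.42 CPM in XBS, against 36.0 ± 7.34 CPM in MOD (edgeR adjusted p = 0.0302). By sign, 11 of the 18 were positive and 7 negative, and DESeq2 called 4 higher and 3 lower, against the same shares of 1.5% and 1.08%. The 4, named after their values were seen and none past the threshold by edgeR, were Nr1d1, Nr1d2, Dbp and Per3. In each of them every XBS library lay above every MOD library, as in 1.61% of all tested genes. The 3 lower were Per1, Cry1 and Arntl, the last also named after its values were seen. Arntl averaged 31.2 ± 6.13 CPM in XBS and 52.7 ± 5.61 CPM in MOD (SD, n = 5 each, edgeR adjusted p = 0.0858). Every XBS library lay below every MOD library for Arntl, as in 1.13% of all tested genes. Nr1d1, which encodes the clock repressor REV-ERB alpha, averaged 87.8 ± 38.8 CPM in XBS and 13.5 ± 8.67 CPM in MOD, a 6.52-fold difference (SD, n = 5 each; edgeR adjusted p = 0.0759). Nr1d2, Dbp and Per3 were 2.83-fold, 3.98-fold and 2.34-fold higher in XBS (edgeR adjusted p = 0.0759, 0.104 and 0.124). The labels give no hour of sampling, and a link of the Cdkn1a values to glucocorticoids or to the clock was not tested. With single libraries left out, Per1 and Klf15 passed in 10 of 10 runs. Cry1 passed in 6 of 10, not without XBS 1, XBS 2, XBS 3 or MOD 4, and Nfkbia in 3 of 10, those without XBS 5, MOD 1 or MOD 5 (largest adjusted p 0.123 and 0.167).

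Genes further along the cell cycle were higher in XBS by sign, and few passed. Of 17 tested proliferation markers, 2 rose, Bub1, a mitotic checkpoint kinase, and Mki67, the gene of the Ki-67 antigen (edgeR adjusted p = 0.0412 and 0.0445), 0 fell and 15 did not pass, where 0.0279% of all genes rose. DESeq2 called 9 of the 17 higher and limma voom 4, with 0 lower by either. Over all genes with an adjusted p, DESeq2 called 1.5% higher, and limma voom called 0.461% in either direction. Bub1 averaged 23.3 ± 2.17 CPM in XBS and 14.6 ± 1.21 CPM in MOD, and Mki67 averaged 66.3 ± 10.4 CPM in XBS and 38.6 ± 4.50 CPM in MOD (SD, n = 5 each). The list had 16 positive fold changes and a median log2 fold change of 0.59. All 11 tested genes of G2/M control had a positive fold change, with a median of 0.48, and 0 passed by edgeR, while DESeq2 called 3 higher and limma voom 1. Among them, Ccna2, a cyclin of S phase and G2, averaged 16.9 ± 3.66 CPM in XBS and 10.2 ± 1.28 CPM in MOD, and Ccnb1, the mitotic cyclin, averaged 13.7 ± 3.25 CPM in XBS and 7.46 ± 1.45 CPM in MOD (SD, n = 5 each; edgeR adjusted p = 0.106 for both). With single libraries left out, Bub1 passed in 1 of 10 runs, that without XBS 5, and Mki67 in 2 of 10, those without XBS 1 or MOD 1 (largest adjusted p 0.123 and 0.167).

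In the G1/S core, 0 of 21 tested genes passed, 16 had a positive fold change, and the median log2 fold change was 0.16. DESeq2 called 3 higher and 1 lower, against 1.5% higher and 1.08% lower of the genes to which it gave an adjusted p. Cks1b, which helps to mark p27 for destruction, averaged 14.8 ± 1.52 CPM in XBS and 10.2 ± 0.69 CPM in MOD, and E2f2, an activating E2F factor, averaged 48.0 ± 6.09 CPM in XBS and 35.5 ± 3.00 CPM in MOD (SD, n = 5 each; edgeR adjusted p = 0.0890 and 0.129). The D cyclin partners, named after their values were seen, differed in sign. Cdk4 averaged 47.3 ± 3.83 CPM in XBS and 43.5 ± 4.04 CPM in MOD (edgeR adjusted p = 0.547). Cdk6 had 5.67 to 8.53 CPM in XBS, below the 9.25 to 12.4 CPM of every MOD library (edgeR adjusted p = 0.166). Groups did not overlap, lower in XBS, in 1.13% of all tested genes. Of the 21 G1/S genes, 5 did not overlap in the other direction, as in 1.61% of all tested genes. Of 10 tested FoxO and quiescence factors, 0 passed and 8 had a negative fold change, against 48.1% of all genes. DESeq2 called 1 higher and 2 lower, against the same shares of 1.5% and 1.08%. Of this list, Cebpd is also in that of the glucocorticoid-induced genes. Foxm1, a factor of G2 and mitosis, averaged 14.7 ± 1.38 CPM in XBS and 8.84 ± 1.64 CPM in MOD (adjusted p = 0.0858), and Cebpd, an acute phase factor, averaged 85.6 ± 15.7 CPM in XBS and 160 ± 41.9 CPM in MOD (adjusted p = 0.0898).

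**Figure D4:**
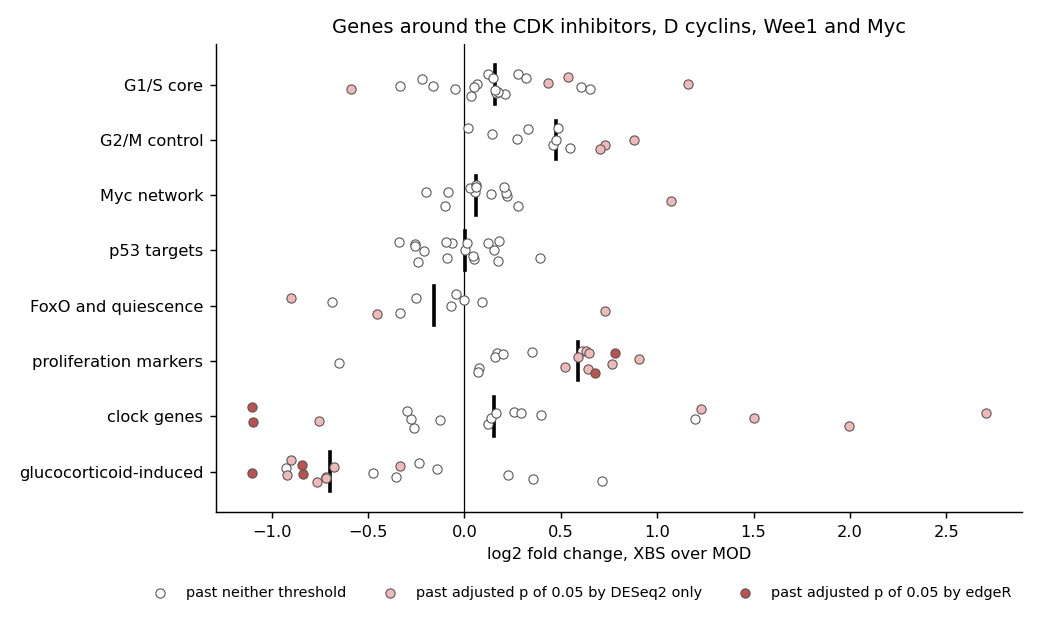
Log2 fold change, XBS over MOD (horizontal axis), of every tested gene in 8 pathway lists. Black bars are list medians, dark points passed an adjusted p of 0.05 by edgeR and pale points passed by DESeq2 only. The p53 targets centre on 0 (median 0.004), the glucocorticoid-induced genes lie mostly to the left (median -0.70) and the proliferation markers to the right (median 0.59).

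Markers of other cell types leaned one way in several lists, and 1 marker passed the threshold, Cyp4b1 of the club cell list, which fell to 249 ± 25.7 CPM in XBS, against 395 ± 11.2 CPM in MOD (SD, n = 5 each; edgeR adjusted p = 0.0104, and 0.0715 without XBS 2 and XBS 3). The 12 T cell markers found summed to 245 to 302 CPM in XBS, above the sums of 181 to 243 CPM in every MOD library, and 11 of 12 had a positive fold change with 0 past the threshold. The 12 alveolar type 1 markers all had a negative fold change, and summed to 6966 to 10642 CPM in XBS, against 10233 to 11704 CPM in MOD, with groups that overlapped. No marker of either list was at 0 in any library. All 11 neutrophil markers tested were positive, with sums of 463 to 1032 CPM in XBS, against 414 to 621 CPM in MOD, and XBS 2 was the highest. Of the tested markers, 9 of 9 for B cells and 10 of 11 for macrophages had a positive fold change, with median log2 fold changes of 0.44 and 0.40, beside 0.22 for T cells. Of the erythroid markers 7 of 7 were negative (median -0.47), and of the endothelial markers 9 of 11 (median -0.33). Smooth muscle markers were positive in 7 of 8 (median 0.30), and ciliated cell markers negative in 11 of 12 (median -0.24). The part of these cell types in the differences of Cdkn1a and of the proliferation markers was not tested.

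Across the 10 libraries, genes were ranked by the likeness of their log2 CPM to that of Cdkn1a, leaving out those without a symbol or with a provisional name. The first 5 were Inpp5b (Pearson r = 0.961), Mical2 (0.944), Bicd1 (0.922), Cry1 (0.915) and Lrig2 (0.914). Spearman's rho was 0.964, 0.939, 0.891, 0.903 and 0.867 in the same order. These values are a description, and they include the difference between the groups that all 5 share in sign. Of deviations from the group means alone, r was 0.849 for Inpp5b, 0.811 for Mical2, 0.690 for Bicd1, 0.621 for Cry1 and 0.788 for Lrig2. Since the 5 genes were picked by r over these same libraries, their r within groups is partly fixed by that choice. Inpp5b, a phosphoinositide phosphatase gene, had 4.29 to 7.60 CPM in XBS, below the 11.4 to 19.3 CPM of every MOD library (edgeR adjusted p = 0.0412, and above 0.05 in 8 of 10 runs with a single library left out). Mical2, the gene of an actin-oxidising enzyme, had 70.0 to 97.0 CPM in XBS, against 98.3 to 122 CPM in MOD (adjusted p = 0.131). For both, XBS 5 was the highest XBS library, as for Cdkn1a.

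**Figure D5:**
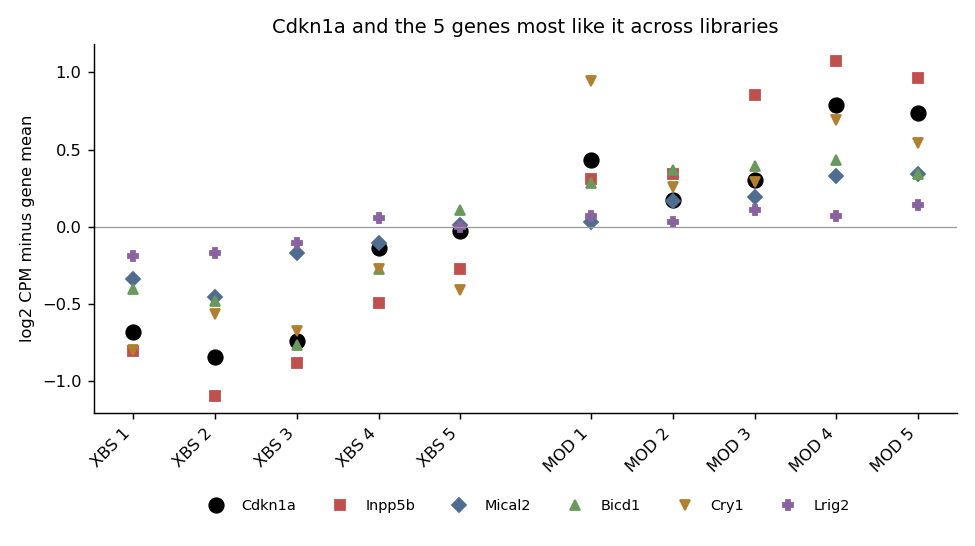
Log2 CPM minus the gene's mean over the 10 libraries (vertical axis) for Cdkn1a and the 5 genes most like it among those with a symbol, by library. Cdkn1a is lowest in XBS 2 (31.3 CPM) and highest in MOD 4 (96.9 CPM), and in XBS 4 and XBS 5 it lies nearest to MOD.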

How the data were processed

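Messenger RNA of rat lung was sequenced in 10 libraries, grouped by title into XBS and MOD. Per the labels' protocols, RNA was isolated with Trizol and mRNA was purified, fragmented and amplified; they do not state strandedness, so reads of overlapping genes cannot be told apart. Per the file headers, the authors deposited 2 columns for every library, a raw read count and FPKM. The deposited counts were whole numbers; dividing them by gene length and library total gave back the deposited FPKM (largest relative deviation 8.82e-08). The submitters' processing notes list human (hg38, GRCh38) and mouse (mm10) builds; the aligner, counter and rat build were not given in the sources used here.

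Totals were 11998979 to 15518929 counts per library, so 3 counts corresponded to 0.190 to 0.246 CPM, counting error only. No pair of replicates was close enough to be a single library (chi-square per degree of freedom at least 9.46). The whole table was filtered with filterByExpr (minimum count 10, minimum total 15) to 14320 genes, and XBS was compared with MOD by the robust quasi-likelihood test of edgeR 4.0.16 (R 4.3.3) after TMM scaling. P-values were adjusted by Benjamini-Hochberg over the whole table, with a threshold of 0.05. "Rose" and "fell" are used of genes past it, and adjusted p-values without a named tool come from this test. CPM use TMM-scaled totals, and log2 CPM use a prior count of 2. Standard errors are the size of the log2 fold change over the square root of F. Alternatives were DESeq2 1.42.0, limma 3.58.1 voom with sample weights, RLE and upper quartile scaling, no filter, at least 1 CPM in 5 libraries, the replicate number as a block, leaving out each library in turn, and leaving out XBS 2 and XBS 3.

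The genes and lists were chosen with earlier results of these data known. Named were all the genes found, the 2 of smallest p and all past the threshold of each pathway list, and the 5 genes of highest Pearson r with Cdkn1a. That ranking left out genes without a symbol or with a provisional name, such as those starting with LOC or RGD. Other named genes are marked in the text. Promoter sequences are from RefSeq (GRCr8), matched by symbol and Entrez identifier.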

Additional observations from a re-analysis of the deposited data

Results flagged for a closer look

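Among 37 named results looked at in both groups, 4 libraries stood apart from the other 4 of their group by Dixon's ratio at the 95% level, where chance gives about 1 in 20 of the 74 groups. None of them concerned the 9 cell cycle entry and brake genes themselves. Foxm1 was at 12.3 CPM in XBS 5 and at 14.9 to 15.8 CPM in the other XBS libraries. Mycn was at 6.66 CPM in XBS 2 and at 3.44 to 4.17 CPM in the other XBS libraries. Mxd3 was at 67.2 CPM in MOD 1 and at 44.1 to 48.6 CPM in the other MOD libraries. Bub1 was at 12.5 CPM in MOD 3 and at 14.8 to 15.6 CPM in the other MOD libraries.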

How the results depend on the processing

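Over 18 alternatives, the sign of 8 of the 9 genes held in all 144 values, and 142 stayed on the same side of the threshold. The exceptions were both Cdkn1a, which passed by DESeq2 (log2 fold change -0.95, adjusted p = 0.00028) and with the replicate number as a block (-0.97, adjusted p = 0.0271). Its log2 fold change ran from -1.08 to -0.87 with single libraries left out (adjusted p 0.0743 to 0.239), and was -0.76 without XBS 2 and XBS 3 (adjusted p = 0.251). Ccnd3, near 0, changed sign with limma voom (-0.0260), with no filter (-0.00699) and without XBS 2 and XBS 3 (-0.13), and ran from -0.0587 to 0.0413 with single libraries left out. The count of the 9 genes past the threshold was 1 by DESeq2, 1 with the block and 0 in every run without a single library. The count of all genes was 348 by DESeq2, 66 by limma voom, 1 with the block, 3 without XBS 2 and XBS 3, and 4 to 15 with single libraries left out. Genes of the 8 pathway lists that were higher numbered 2 in the main analysis, 21 by DESeq2, 7 by limma voom, 1 with no filter, 0 with the block, 0 without XBS 2 and XBS 3, and 0 to 2 with single libraries left out. Those that were lower numbered 4 in the main analysis, 13 by DESeq2, 8 by limma voom, 0 with the block, 2 without XBS 2 and XBS 3, and 2 to 5 with single libraries left out. Of genes named beside the 9, Arntl was not followed here, and none of the others changed sign under any of the 18 alternatives. The cause of these shifts was not tested.

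The labels do not say that the replicate numbers pair the libraries. Correlations of deviations from the group means between libraries of one number were 0.33, 0.22, -0.12, 0.09 and 0.20 for numbers 1 to 5, so 3 of 5 exceeded 0.1, and 2 of 10 libraries correlated best with their own number. The numbers were therefore not used as pairs, and a partial link between them is not excluded. With the block, Cdkn1a was the 1 gene of the table past the threshold. All 9 genes had at least 159 reads in every library, far above the 3 counts that mark the floor.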
